A study of Homo sapiens with 12 samples.

Results

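The genes described here are 41 that encode the machinery by which the kinase complex mTORC1 senses amino acids at the lysosome. They were taken by symbol from a list of 11 functional groups: the Rag GTPases, Ragulator, the core of mTORC1, the TSC complex with RHEB, the FLCN complex, GATOR1, GATOR2, nutrient sensors with KICSTOR, the TFEB family, subunits of mTORC2, and the S6 kinases. They are 41 of 85298 gene identifiers in the table, and all 41 were among the 26366 genes with enough counts to be tested. RNA was measured in HEK 293T, an established line from human embryonic kidney that carries the SV40 large T antigen. One group of 4 libraries received a scramble shRNA, and 2 further groups of 4 received a hairpin against SIDT2, shRNA-B or shRNA-D. SIDT2 is a membrane protein of the lysosome that takes up RNA. All 3 groups were transduced with lentivirus, with 4 µg/mL polybrene per the labels, grown in high-glucose medium with serum and glutamine, and collected 72 h later for sequencing of polyadenylated RNA. Whether transduced cells were selected is not given in the sources used here, and no untransduced cells were analysed here. The stated purpose of the series is to find transcripts that depend on SIDT2-mediated delivery of RNA to lysosomes.

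Rag GTPases work as dimers, RRAGA or RRAGB with RRAGC or RRAGD, and are held on the lysosomal surface by the Ragulator scaffold. With amino acids present, the Rag dimer brings mTORC1 to the lysosome, where the small GTPase RHEB switches the kinase on, and active mTORC1 then drives protein synthesis through the S6 kinases and keeps TFEB, TFE3 and MITF out of the nucleus. GATOR1 and the FLCN complex set the nucleotide state of the Rags, GATOR2 and the amino acid sensors act on GATOR1, and the TSC complex restrains RHEB.

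Levels are given as CPM, the count of a gene relative to a library total scaled by TMM, and changes as log2 fold changes with their standard error (SE), each from 4 libraries a group. A gene was called at an adjusted p under 0.05 in the quasi-likelihood test of edgeR, with the Benjamini-Hochberg adjustment over all tested genes, and every adjusted p below comes from this test. Totals were 68737402 to 102644699 estimated counts per library. The member with the fewest counts, CASTOR1, had 107 to 232 per library, which limits its counting precision to a coefficient of variation of 6.57% to 9.69%. SIDT2 itself was at 21.6, 20.5, 18.3 and 19.8 CPM in scramble libraries 1 to 4, at 6.61, 8.27, 5.77 and 6.75 CPM with shRNA-B and at 5.47, 7.20, 7.58 and 7.55 CPM with shRNA-D. All 8 knockdown libraries lay below all 4 scramble libraries, and SIDT2 fell by 1.55 on the log2 scale with the first hairpin (adjusted p = 0.000146), and it fell by 1.53 with the other (adjusted p = 0.000515). The interval of the difference between the hairpins was -0.28 to 0.32. The 7 genes chosen as markers of HEK 293T cells each averaged over 1 CPM, led by the intermediate filament gene VIM at 682 to 957 CPM. The 3 libraries of number 4 stood apart in 2 of the others, across all groups. The neurofilament gene NEFM was at 104.8, 119 and 86.5 CPM in number 4 of scramble, shRNA-B and shRNA-D, against 4.22 to 20.9 CPM in the other 9 libraries, and the keratin gene KRT8 at 7.82, 6.13 and 7.71 CPM, against 28.3 to 42.1 CPM. None of the 7 was called between groups, but with the replicate number in the model, as described further on, 4 were called with shRNA-B (NEFM higher, NEFL, KRT8 and PAX2 lower) and the same 4 between hairpins. These 4 are 57.1% of the markers, against 15.2% with shRNA-B and 20.2% between hairpins of all genes that average at least 1 CPM. The part of these markers in the results on the members was not tested, beyond the models without number 4 given there. The marker lists of fibroblasts, leukocytes, hepatocytes and erythroid cells summed to at most 18.4 CPM in any library, most of it COL1A1 at 9.77 to 17 CPM.

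The promoters of the members were searched for CACGTG, the core of the motif that TFEB, TFE3 and MITF bind, because these 3 members of the list act on genes of the lysosome. The motif reads the same on both strands. RefSeq windows of 300 bases (GRCh38.p14, 250 before to 50 after a start site) were found for 35 of the 41 members, 48 windows in all. RRAGA, RRAGD, MLST8, DEPTOR, AKT1S1 and WDR24 had no window. The motif stood in 7 of the 48 windows (14.6%), of 7 genes, against 7.26% of the 35116 windows of all genes. Its longer form, with a T before and an A after it, stood in 2 member windows (4.17%, RRAGB and TSC2) against 0.98% of all windows. In the list of 29 lysosomal TFEB target genes described further on, 11 of 20 windows held CACGTG (55%), and such genes are known for this motif. A match is a description of the sequence and not of binding. The 10 matches follow, with 12 bases on either side and the motif in capitals, since RRAGB, RRAGC, LAMTOR1, NPRL3 and TSC2 are among the members whose levels are described in full.
RRAGB, chrX:55717622-55717651, plus strand: ctgagccaaggcCACGTGatgatgacagac
RRAGB, chrX:55717712-55717741, plus strand: ggtagcggcagtCACGTGacagactccggg
RRAGB, chrX:55717744-55717773, plus strand: aaggcagatgccCACGTGatcctggcctgc
RRAGC, chr1:38859867-38859896, minus strand: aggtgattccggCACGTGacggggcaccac
LAMTOR1, chr11:72103445-72103474, minus strand: ctttccccgcatCACGTGcttgcgtgtacg
LAMTOR4, chr7:100148892-100148921, plus strand: agcggctgcaagCACGTGaccggggcctga
TSC2, chr16:2047859-2047888, plus strand: atgcggccccgtCACGTGatgcaaggatcg
FNIP1, chr5:131797175-131797204, minus strand: ccccgcccctgcCACGTGacgggacccgcc
FNIP1, chr5:131797094-131797123, minus strand: tccgcgcgccgcCACGTGatgcggcccccc
NPRL3, chr16:138631-138660, minus strand: cccggagcgtggCACGTGggttggtaactg
The motif begins upstream of the start site in 8 of the 10 matches, 112 bases before it in RRAGC, 165 in LAMTOR1 and 114 in TSC2. In NPRL3 it begins 25 bases after the start, and in RRAGB the matches begin 115 and 25 bases before and 7 bases after it. Neither of the 2 windows of FNIP2 holds these letters, nor do the windows of LAMTOR5 and SESN3, which says only that they are not in these windows.

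In the model that leaves the replicate number out, few of the 41 members were called, and more were called with the number as a block, as the next paragraph gives. RRAGC rose and FNIP2, a partner of the FLCN tumour suppressor, fell with shRNA-B, while no member was called with shRNA-D or for the mean of both hairpins. Between the hairpins, RRAGC and the Ragulator anchor LAMTOR1 were lower and FNIP2 higher with shRNA-D. The 2 members called with shRNA-B are 4.88% of the list, against 0.876% of all tested genes and 1.43% of the 15869 genes that average at least 1 CPM, as all members do. With shRNA-D the 0 members called stand against 0.269% of all tested genes and 0.441% of those of at least 1 CPM. For the mean of both hairpins the 0 called stand against 0.231% and 0.378%. Between the hairpins, 3 members (7.32%) were called against 0.952% and 1.56%. At an unadjusted p under 0.05, 10 members passed with shRNA-B, 3 with shRNA-D, 6 for the mean and 7 between hairpins. Of the 15869 genes of at least 1 CPM, 1683, 930, 1151 and 2049 passed in the same order. DESeq2 called 1 member with shRNA-D, LAMTOR1, and 2 for the mean, RRAGC and FNIP2, and limma with voom called 0 in both. In both contrasts DESeq2 also called more of all genes than edgeR did, as the last section gives. The median change of the members was 0.04 with shRNA-B, against 0.01 over the genes of at least 1 CPM. It was -0.04 against -0.03 with shRNA-D, where upper-quartile scaling (0.0019) and library totals alone (0.02) turned its sign, and -0.14 against -0.04 between the hairpins. The contrasts share libraries, so their counts are not independent of each other.

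The replicate numbers 1 to 4 recur in every group and libraries of the same number deviated together, so a second model took the number as a block. It lowered the common biological coefficient of variation from 25% to 12.1% and called more genes everywhere. With it, 10 members were called with shRNA-B (24.4%), against 9.58% of all tested genes and 15.2% of those of at least 1 CPM. RRAGB, RRAGC, RRAGD, LAMTOR1, LAMTOR5, WDR24 and KPTN were the 7 called higher, and FNIP2, TSC2 and SESN3 the 3 called lower. With shRNA-D, LAMTOR1 and SESN3 were called, both lower (2 members, 4.88%), against 3.3% and 5.36%. For the mean, 5 members were called (12.2%) against 5.07% and 8.19%. They were RRAGB, RRAGC and LAMTOR5, higher, and FNIP2 and SESN3, lower. Of these 5, SESN3 alone was also called with shRNA-D. Without the block, RRAGB, RRAGC, LAMTOR5 and FNIP2 changed by 0.08, 0.07, 0.12 and -0.13 with shRNA-D. With shRNA-B they changed by 0.37, 0.55, 0.35 and -0.57. A call for the mean is therefore not a change shown with each hairpin. Between the hairpins, 11 members were called (26.8%) against 12.9% and 20.2%. With shRNA-D, 9 of them were lower than with shRNA-B, namely RRAGA, RRAGB, RRAGC, RRAGD, LAMTOR1, LAMTOR3, LAMTOR5, NPRL3 and WDR59, and FNIP2 and TSC2 were higher. When each replicate number was left out of this model in turn, the 10 members with shRNA-B became 5, 9, 4 and 6, and the 11 between hairpins became 3, 10, 5 and 8. The 2 with shRNA-D became 1, 3, 1 and 2, and the 5 for the mean became 2, 6, 2 and 3. These models hold fewer libraries, and the share of all genes called in them is not given here. Calls that held whichever number was left out were RRAGB, RRAGC, LAMTOR5 and FNIP2 with shRNA-B, LAMTOR1 with shRNA-D, RRAGC and FNIP2 for the mean, and RRAGC, LAMTOR1 and FNIP2 between hairpins.

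**Figure D1:**
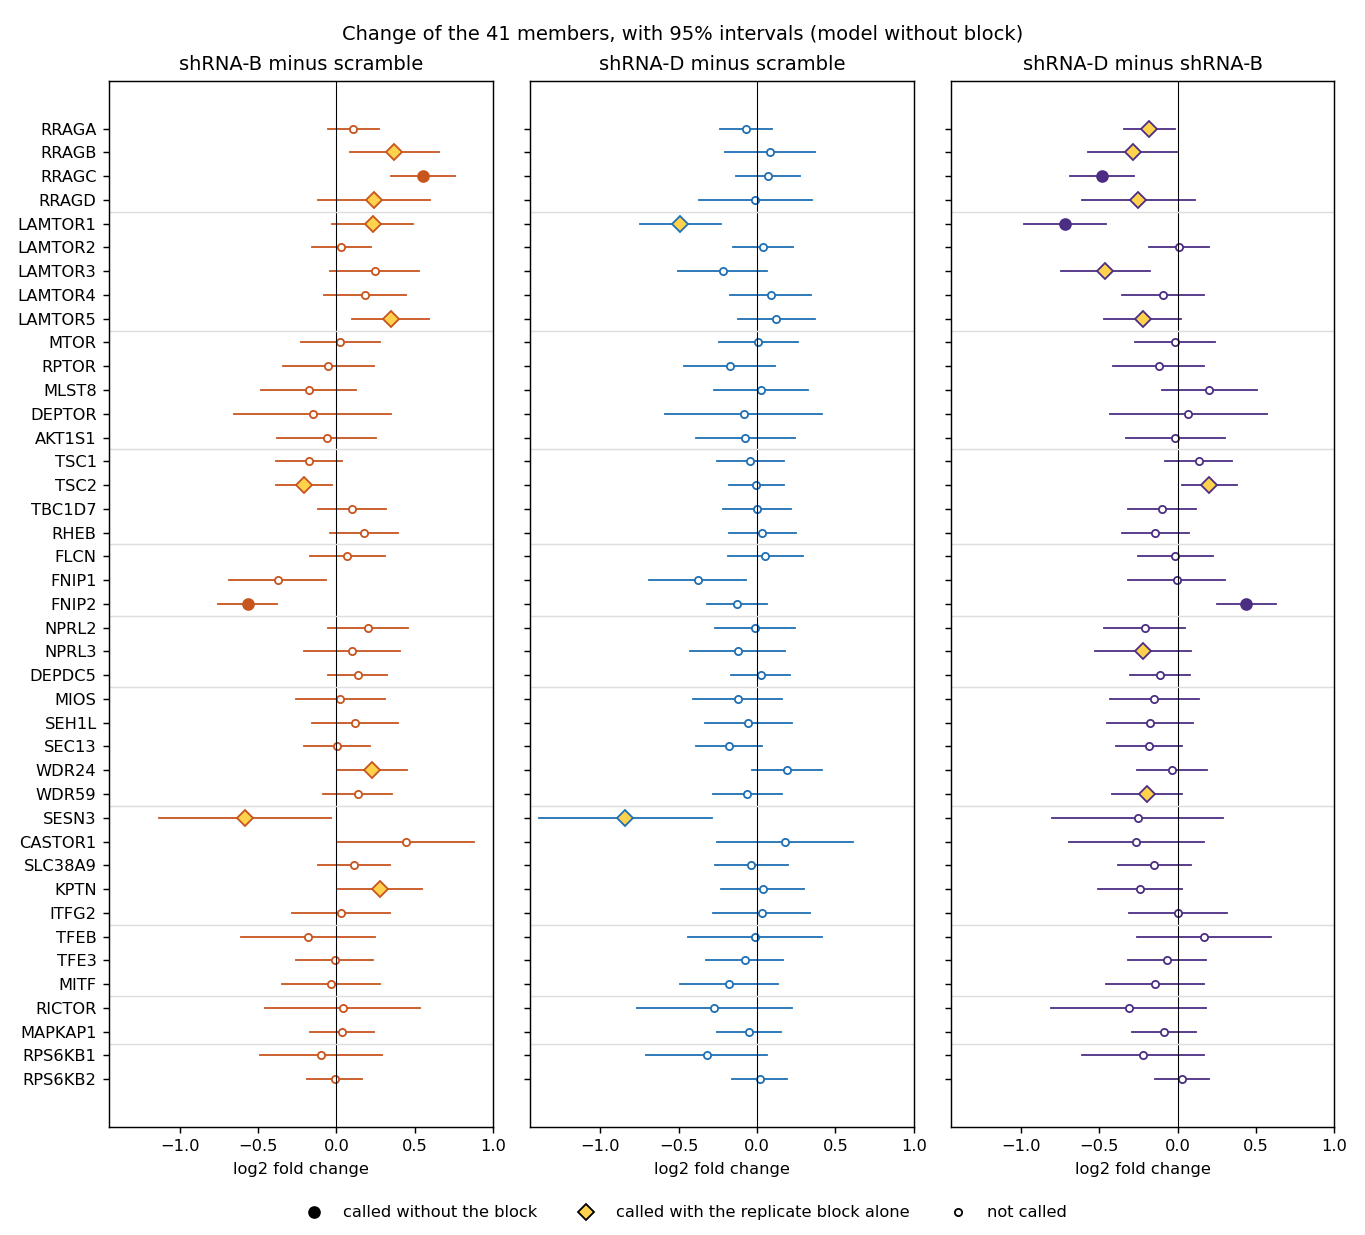
Log2 fold change of the 41 members (points) with 95% intervals (lines) from the model without block, in order of role, with a panel for each hairpin against scramble and a panel for shRNA-D against shRNA-B. Filled circles mark the 2, 0 and 3 members called in that model, and diamonds mark members called only when the replicate number was a block. RRAGC and FNIP2 stand apart at 0.55 and -0.57 in the first panel.

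All 4 Rag GTPase genes were detected in every library. RRAGC, which encodes a Rag that pairs with RRAGA or RRAGB, was at 28.3, 27.03, 26.9 and 25.5 CPM in scramble libraries 1 to 4, at 46.04, 38.2, 36.5 and 37.1 CPM with shRNA-B and at 30.8, 27.3, 26.3 and 28.5 CPM with shRNA-D. The 4 shRNA-B libraries lay above the other 8, while shRNA-D and scramble overlapped. RRAGC rose with shRNA-B by 0.55 ± 0.095 (SE; adjusted p = 0.0146, and 6.25e-05 with the block). The adjusted p was 0.0705, 0.0662 and 0.0564 without scramble 2, 3 and 4, 0.0589 without shRNA-B 1, and 0.0753 with only these groups in the model. With shRNA-D the change was 0.07 ± 0.095 (95% interval -0.14 to 0.27), and the hairpins differed by -0.48 ± 0.095 (adjusted p = 0.0308, and 0.000154 with the block). That difference was lost on leaving out any single library of the 12, at adjusted p 0.0559 to 0.162, and held in 5 of 21 alternatives. Less RNA per cell and fewer cells of a kind cannot be told apart in bulk RNA, here and in all that follows.

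RRAGB, the alternative to RRAGA in the dimer, was at 10.9, 13.2, 14.7 and 12.9 CPM in scramble, at 14.9, 15.96, 19.4 and 16.5 CPM with shRNA-B and at 11.4, 13.6, 16.1 and 13.6 CPM with shRNA-D. The 4 shRNA-B libraries lay above all 4 scramble libraries, and shRNA-D overlapped both groups but was below shRNA-B in each number. The change with shRNA-B was 0.37 ± 0.13 (adjusted p = 0.407) and was called with the block (adjusted p = 0.00102). Between hairpins the adjusted p was 0.529 without and 0.00451 with the block, and 0.116 with the block but without number 1. For the mean of both hairpins the block gave 0.0179.

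RRAGD, the alternative to RRAGC and a known target of the TFEB family, was at 58.1, 60.9, 59.4 and 42.6 CPM in scramble, at 74.2, 70.8, 71.1 and 44.8 CPM with shRNA-B and at 60.2, 59.4, 56.2 and 43.3 CPM with shRNA-D. Library 4 was the lowest of its group in all 3 groups, and libraries 1 to 3 with shRNA-B were the highest of all 12. The change with shRNA-B was 0.24 ± 0.17 (adjusted p = 0.9, and 0.0257 with the block), and between hairpins -0.25 ± 0.17 (adjusted p = 0.743, and 0.0174 with the block). In the blocked model both calls were kept only without number 4, and the adjusted p rose to 0.213 and 0.201 without number 1.

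RRAGA was at 76.6, 73.6, 66.1 and 71.5 CPM in scramble, at 77.8, 79.4, 77.7 and 75.3 CPM with shRNA-B and at 72.6, 64.1, 66.04 and 70.9 CPM with shRNA-D. The 4 shRNA-B libraries lay above the 4 shRNA-D libraries, and scramble overlapped both. Between hairpins it was called with the block alone (-0.18 ± 0.056, adjusted p = 0.0495), close to the threshold, and not without any 1 number (adjusted p 0.0886 to 0.224). All 4 Rag genes were therefore called lower with shRNA-D than with shRNA-B in the blocked model, with a median of -0.26. Of the genes of at least 1 CPM, 20.2% were called there in either direction, with a median of -0.03. RRAGC was the only 1 of the 4 whose blocked call held whichever number was left out. It was also the only 1 called in the model without the block.

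**Figure D2:**
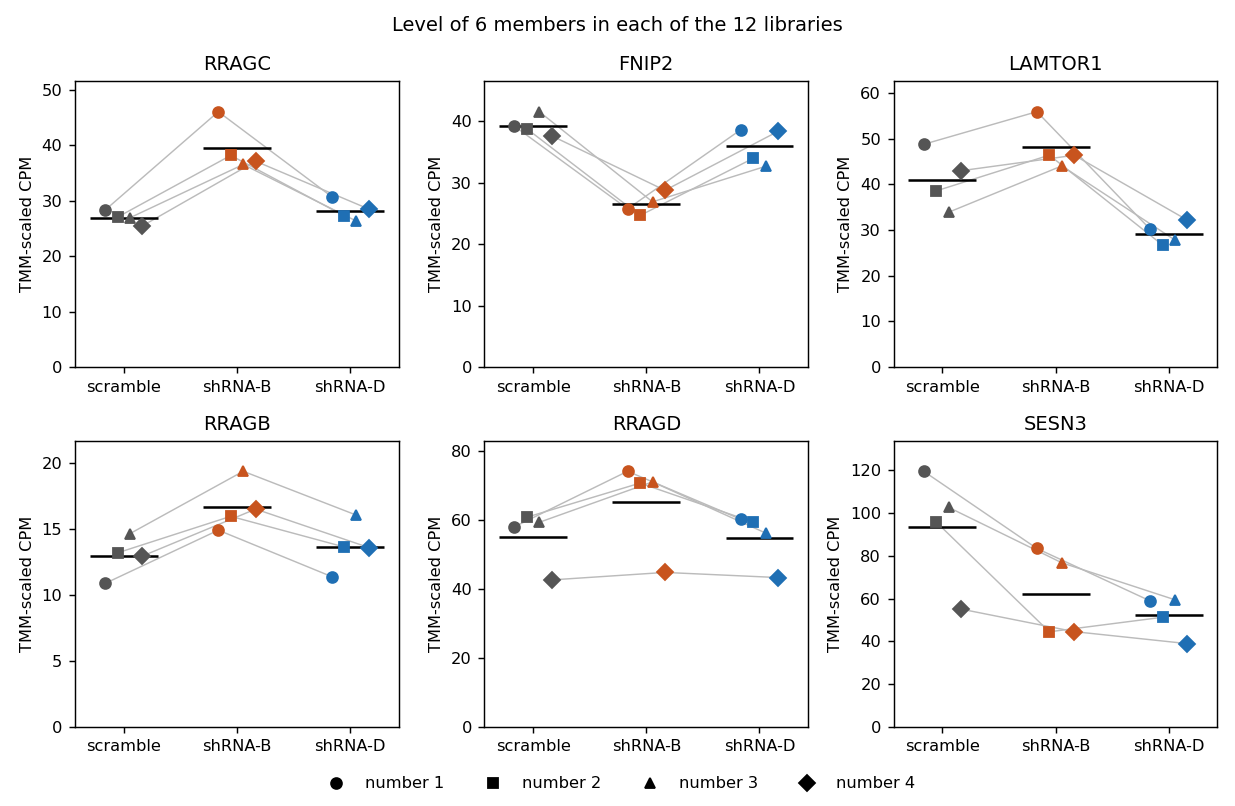
TMM-scaled CPM (vertical axis, from 0) of RRAGC, FNIP2, LAMTOR1, RRAGB, RRAGD and SESN3 in each library of the 3 groups. Marker shapes give the replicate number, grey lines join libraries of the same number and black bars are group means. RRAGC is highest and FNIP2 lowest in the 4 shRNA-B libraries, LAMTOR1 is lowest with shRNA-D, and library 4 is lowest of each group for RRAGD.

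Ragulator anchors the Rags to the lysosome, and LAMTOR1 is the lipid-modified subunit that holds it in the membrane. LAMTOR1 was at 48.8, 38.5, 33.9 and 42.97 CPM in scramble, at 55.9, 46.4, 44.02 and 46.4 CPM with shRNA-B and at 30.2, 26.7, 27.8 and 32.1 CPM with shRNA-D. All 4 shRNA-D libraries lay below the other 8, and scramble and shRNA-B overlapped. The hairpins differed by -0.72 ± 0.12 (adjusted p = 0.0118), and this was called in 16 of 21 alternatives. Among those that lost it, the adjusted p was 0.0625 without shRNA-B 1, and 0.0528, 0.0761 and 0.0696 without shRNA-D 1, 2 and 3. Against scramble, shRNA-D gave -0.49 ± 0.12 (adjusted p = 0.192), called with the block (adjusted p = 0.00151) and by DESeq2 (adjusted p = 0.038). With shRNA-B the change was 0.23 ± 0.12 (adjusted p = 0.73). The block brought it to 0.0448, which no model without a number kept (0.0689 to 0.187).

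LAMTOR5, a scaffold subunit, was at 57.2, 50.9, 52.9 and 48.3 CPM in scramble, at 71.04, 63.3, 77.8 and 54.03 CPM with shRNA-B and at 61.6, 52.5, 60.8 and 52.8 CPM with shRNA-D. Each shRNA-B library exceeded the scramble and the shRNA-D library of its number, although the groups overlapped. The change with shRNA-B was 0.35 ± 0.11 (adjusted p = 0.308, and 0.00424 with the block). Its blocked calls for the mean (0.0301) and between hairpins (0.0387) each held in 1 of 4 models with a number left out, the former without number 2 and the latter without number 4, and otherwise had adjusted p 0.0538 to 0.151 and 0.123 to 0.258. An antisense row, LAMTOR5-AS1, held up to 52.9% as many counts as LAMTOR5 in a library, and the use of strand in counting is not given, so reads of the pair may be shared. That row was not called in any contrast and differed by -0.01 from scramble with shRNA-B.

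LAMTOR3, which binds the MAP kinase kinase MEK1, was at 39.9, 37.3, 42.6 and 37.7 CPM in scramble, at 51.1, 35.9, 57.4 and 41.9 CPM with shRNA-B and at 31.96, 31.9, 38.1 and 33.3 CPM with shRNA-D. Scramble and shRNA-B overlapped, and shRNA-D libraries were lower than the other libraries of the same number. Between hairpins the difference was -0.46 ± 0.13 (adjusted p = 0.162), called with the block (adjusted p = 0.00258) and by DESeq2, but not with the block and without number 1 (0.0582). LAMTOR2 and LAMTOR4 were called in no contrast of either model. LAMTOR4 carries 1 of the motif matches above and differed from scramble by 0.18 ± 0.12 for shRNA-B and 0.09 ± 0.12 for shRNA-D.

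The FLCN complex acts on RRAGC and RRAGD and is needed for TFEB control. FNIP2 was at 39.2, 38.8, 41.5 and 37.6 CPM in scramble, at 25.7, 24.6, 26.9 and 28.7 CPM with shRNA-B and at 38.6, 33.95, 32.6 and 38.3 CPM with shRNA-D. The 4 shRNA-B libraries lay below the other 8, and shRNA-D overlapped scramble. FNIP2 fell with shRNA-B by 0.57 on the log2 scale (SE 0.088, adjusted p = 0.00718), and this was called in 21 of 21 alternatives, at adjusted p 2.99e-08 to 0.0355. With shRNA-D the change was -0.13 ± 0.088 (95% interval -0.32 to 0.06), and the hairpins differed by 0.44 ± 0.088 (adjusted p = 0.0346). That difference was called in 12 of 21 alternatives, and its highest adjusted p was 0.118, with only the groups compared. Among the other alternatives that missed the threshold were those without scramble 2 (0.0528) and without shRNA-B 1, 2 or 3 (0.0903, 0.0512 and 0.0769). So were those without shRNA-D 1, 2 or 4 (0.102, 0.0655 and 0.0819). With the block the difference was at adjusted p = 0.000956. For the mean of both hairpins the adjusted p was 0.0933, and 0.00285 with the block.

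FNIP1, the other partner of FLCN, was singled out after its values were seen. It was at 41.4, 43.5, 45.1 and 33.4 CPM in scramble, at 39.0, 22.9, 32.95 and 31.3 CPM with shRNA-B and at 30.9, 33.2, 32.2 and 29.1 CPM with shRNA-D. The shRNA-D libraries lay below all 4 scramble libraries and shRNA-B overlapped them. The gene was below the scramble library of its number in 4 of 4 pairs with each hairpin, at -0.37 ± 0.14 with shRNA-B and -0.38 ± 0.14 with shRNA-D, but passed in no contrast (adjusted p = 0.477 and 0.801, and 0.146 and 0.244 with the block). The pairs with shRNA-B were uneven, at -0.09, -0.93, -0.45 and -0.09 in log2 CPM for numbers 1 to 4. Those with shRNA-D were at -0.42, -0.39, -0.48 and -0.20. FLCN itself differed from scramble by 0.07 ± 0.11 and 0.05 ± 0.11 and was not called, with 95% intervals of -0.17 to 0.31 and -0.19 to 0.29.

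The nutrient sensors and KICSTOR, which brings GATOR1 to the lysosome, were led by SESN3, a sestrin that restrains GATOR2. SESN3 was at 119.6, 95.9, 103 and 55.1 CPM in scramble, at 83.4, 44.4, 76.8 and 44.5 CPM with shRNA-B and at 58.9, 51.2, 59.4 and 38.9 CPM with shRNA-D. Every knockdown library lay below the scramble library of its number, but scramble 4 was below 4 knockdown libraries and the groups overlapped. The change was -0.58 ± 0.25 with shRNA-B (adjusted p = 0.592), -0.84 ± 0.26 with shRNA-D (adjusted p = 0.445) and -0.71 ± 0.21 for the mean (adjusted p = 0.36). With the block the adjusted p values were 0.0223, 0.011 and 0.00738. Without number 1 they were 0.0811, 0.112 and 0.0565, and without number 3 they were 0.102, 0.135 and 0.0836. KPTN, a subunit of KICSTOR, was at 11.6, 10.1, 9.22 and 8.89 CPM in scramble, at 11.8, 13.6, 12.2 and 10.7 CPM with shRNA-B and at 11.2, 9.71, 10.7 and 9.15 CPM with shRNA-D, and the groups overlapped. Its change with shRNA-B was 0.28 ± 0.12 (adjusted p = 0.618, and 0.044 with the block, kept only without number 1). The arginine sensor CASTOR1, the lysosomal amino acid transporter SLC38A9 and the KICSTOR subunit ITFG2 were not called in either model. CASTOR1 had the widest interval of the uncalled members on the high side, up to 0.88 with shRNA-B.

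GATOR1 is the complex that switches RRAGA and RRAGB off, and NPRL2, NPRL3 and DEPDC5 are its subunits. NPRL3 was at 37.8, 36.1, 32.4 and 28.2 CPM in scramble, at 38.4, 43.3, 33.5 and 28.98 CPM with shRNA-B and at 33.96, 34.2, 29.7 and 25.5 CPM with shRNA-D. The groups overlapped, while each shRNA-D library was the lowest of its number. Between hairpins its difference was -0.22 ± 0.14 (adjusted p = 0.721), called with the block (0.0171) and not when any 1 number was left out (0.0653 to 0.155). NPRL2 and DEPDC5 were not called in either model.

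GATOR2 counters GATOR1. Its subunit WDR24 was at 12.8, 13.8, 11.98 and 13.4 CPM in scramble, at 14.5, 17.8, 13.9 and 14.6 CPM with shRNA-B and at 14.3, 15.4, 14.8 and 14.8 CPM with shRNA-D. All 8 knockdown libraries lay above all 4 scramble libraries, by 0.22 ± 0.10 for shRNA-B (adjusted p = 0.639) and 0.19 ± 0.10 for shRNA-D (adjusted p = 1). The block called it with shRNA-B (0.0453) but not for the mean of both hairpins (0.0516), and no model without a number kept the call (0.0876 to 0.195). WDR59, its partner subunit, was at 64.3, 73.0, 70.8 and 63.5 CPM in scramble, at 69.6, 86.4, 77.7 and 64.3 CPM with shRNA-B and at 59.5, 70.05, 68.5 and 61.9 CPM with shRNA-D. The groups overlapped, and each shRNA-D library was the lowest of its number, with a difference between hairpins of -0.20 ± 0.10 (adjusted p = 0.621, and 0.0319 with the block, kept only without number 4). MIOS, SEH1L and SEC13, of which the latter 2 also serve the nuclear pore, were not called in either model.

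The TSC complex is the brake on RHEB. Its catalytic subunit TSC2 was at 125, 110.5, 112 and 113 CPM in scramble, at 99.2, 108, 89.04 and 102 CPM with shRNA-B and at 121, 116, 109.6 and 112 CPM with shRNA-D. The 4 shRNA-B libraries lay below the other 8. The change with shRNA-B was -0.21 ± 0.082 (adjusted p = 0.495, and 0.0419 with the block) and the hairpins differed by 0.20 ± 0.082 (adjusted p = 0.42, and 0.0395 with the block). Both blocked calls were kept only without number 2. TSC1, its stabilising partner, the further subunit TBC1D7, and RHEB were not called in either model, although TSC1 (-0.18 ± 0.099) and RHEB (0.18 ± 0.10) came near it with shRNA-B and the block (adjusted p = 0.0523 and 0.0519).

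None of the 5 genes of mTORC1 itself was called in any contrast of either model. Of these, RPTOR, the subunit that recruits substrates, had the smallest p for the mean, at 76.02, 58.98, 57.6 and 69.5 CPM in scramble, 67.98, 66.04, 50.1 and 68.6 CPM with shRNA-B and 64.7, 54.5, 47.95 and 64.8 CPM with shRNA-D. The groups overlapped, and the mean of both hairpins differed from scramble by -0.11 ± 0.12 (95% interval -0.37 to 0.14). The kinase gene MTOR differed from scramble by 0.03 ± 0.12 with shRNA-B and 0.01 ± 0.12 with shRNA-D, with 95% intervals of -0.23 to 0.28 and -0.25 to 0.26. For MLST8, AKT1S1 and the inhibitor DEPTOR, log2 changes against scramble lay between -0.18 and 0.02.

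The TFEB family, the mTORC2 subunits and the S6 kinases had no called member in either model. MITF had the smallest p for the mean in its family, at 14.9, 16.4, 18.9 and 12.4 CPM in scramble, 15.9, 14.97, 17.7 and 12.5 CPM with shRNA-B and 13.8, 15.01, 14.7 and 11.8 CPM with shRNA-D. The groups overlapped, with a change for the mean of -0.11 ± 0.12 (95% interval -0.38 to 0.16). TFEB differed from scramble by -0.18 ± 0.20 with shRNA-B and -0.01 ± 0.20 with shRNA-D, and TFE3 by -0.01 ± 0.12 and -0.08 ± 0.12. RICTOR, the defining subunit of mTORC2, was at 41.2, 55.7, 64.6 and 39.0 CPM in scramble, 56.1, 30.4, 70.4 and 49.2 CPM with shRNA-B and 37.6, 36.1, 52.3 and 39.9 CPM with shRNA-D. It varied widely within groups, lowest in library 2 of both knockdown groups, and the change for the mean was -0.12 ± 0.20 (95% interval -0.54 to 0.31). RPS6KB1, which encodes the main S6 kinase, was at 84.5, 116, 133 and 102 CPM in scramble, 97.04, 69.3, 126 and 114 CPM with shRNA-B and 73.7, 80.6, 97.9 and 96.6 CPM with shRNA-D. The groups overlapped, with a change for the mean of -0.21 ± 0.15 (95% interval -0.54 to 0.12). MAPKAP1, another mTORC2 subunit, and RPS6KB2, the second S6 kinase gene, differed from scramble by -0.05 to 0.03 with either hairpin. Over the 31 members not called with shRNA-B in the blocked model, the 95% intervals reached from -0.70 (FNIP1) to 0.76 (CASTOR1), which is the precision these libraries gave for the most variable members.

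**Figure D3:**
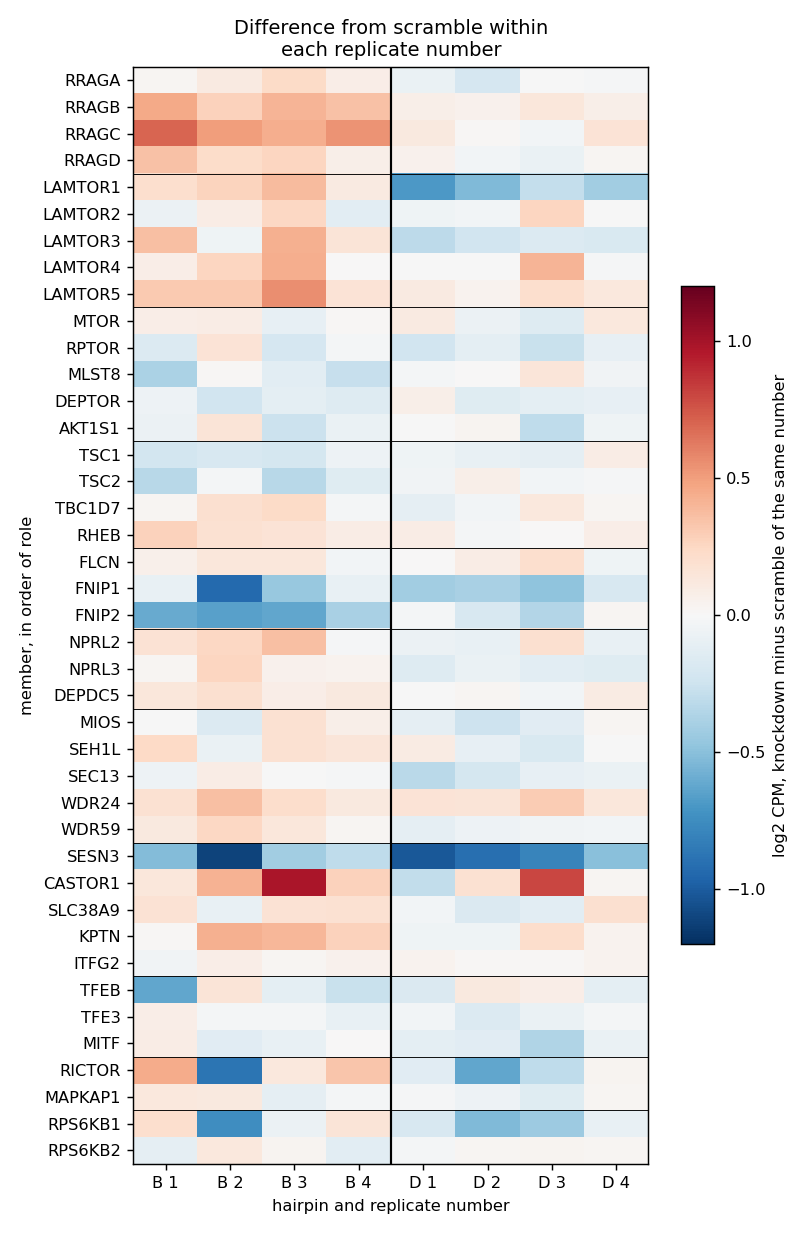
Difference in log2 CPM between each knockdown library and the scramble library of the same replicate number (colour), for the 41 members in order of role (rows) and numbers 1 to 4 of shRNA-B and shRNA-D (columns). The Rag rows are above scramble in all 4 shRNA-B columns, FNIP2 is below it in all 4, and LAMTOR1 is above it with shRNA-B and below it with shRNA-D. Both sets of columns use the same 4 scramble libraries.

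Most members differed between the replicate numbers. In the model with both terms, 27 of the 41 members differed between numbers, against 47.2% of all tested genes and 64.2% of those of at least 1 CPM, so the members' share was close to the latter. Number 4 was the lowest of the 4 numbers in 13 of the 27. SESN3 ranged most, over 0.88 on the log2 scale, from 0.36 above the group means in number 1 to -0.51 in number 4. DEPTOR, which was called in no contrast between groups, ranged over 0.74, from -0.36 in number 1 to 0.38 in number 2. RRAGD was at -0.40 in number 4, and ITFG2, by contrast, at 0.29 there. The median SD of the members within groups was 0.168 and fell to 0.0839 once the number was removed, against 0.218 and 0.107 over genes of at least 1 CPM. FNIP2 (adjusted p = 0.552) and FNIP1 (adjusted p = 0.489) did not pass for the number. RICTOR (0.31), CASTOR1 (0.25), RPS6KB1 (0.23) and FNIP1 (0.23) kept the largest SD after the number was removed. No label says what libraries of a number share.

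**Figure D4:**
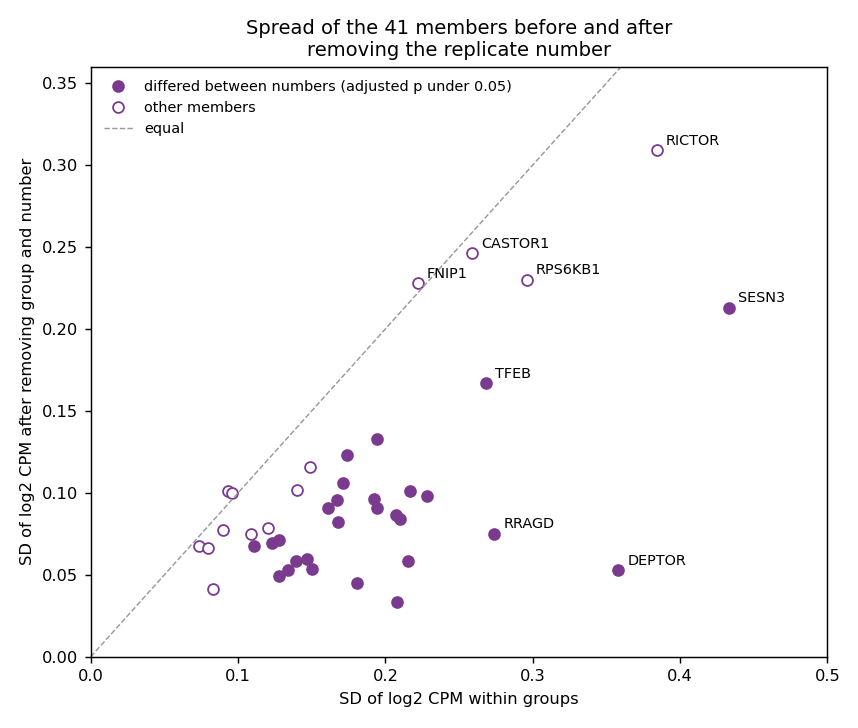
SD of log2 CPM of each member within its groups (horizontal axis) against its SD once group and replicate number are removed (vertical axis), for the 41 members. Filled points are the 27 members that differed between numbers. DEPTOR and RRAGD lie far below the dashed line of equal SD, while FNIP1 and CASTOR1 lie near it.

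Around these members, 104 further genes of the pathway were grouped into 7 lists, all tested. For counts with the block, the shares of genes of at least 1 CPM that were called, 15.2% with shRNA-B, 5.36% with shRNA-D and 20.2% between hairpins, are the background. For counts without the block, these shares are 1.43%, 0.441% and 1.56% in the same order. Of 16 genes of PI3K-AKT input, PIK3CB, a catalytic subunit of PI3K, fell with shRNA-D by 0.87 on the log2 scale (SE 0.10, adjusted p = 0.00178). It averaged 35.2 ± 2.76 CPM (SD, n = 4) in scramble, 43.2 ± 3.60 CPM with shRNA-B and 19.3 ± 1.72 CPM with shRNA-D, and differed between hairpins by -1.16 ± 0.10 (adjusted p = 0.000107). No other gene of that list was called without the block. PIK3CB is 6.25% of the list, against 0.441% with shRNA-D and 1.56% between hairpins. With it, 4 of the 16 (25%, against 15.2%) were called with shRNA-B and 3 between hairpins (18.8%, against 20.2%). With shRNA-B 1 rose and 3 fell, the latter including AKT1 (-0.26) and the lipid phosphatase INPP5D (-0.55).

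Among 15 other sensors and KICSTOR or GATOR genes, RNF152, a ubiquitin ligase that acts on RRAGA, fell with shRNA-B by 0.72 on the log2 scale (adjusted p = 0.0247), from 5.37 ± 0.647 to 3.25 ± 0.288 CPM (SD, n = 4). It was the only one called without the block (6.67% of the list, against 1.43%). With the block, 1 rose and 3 fell with shRNA-B (26.7% called, against 15.2%), and 1 fell with shRNA-D (6.67%, against 5.36%). Between hairpins 2 were higher and 4 lower with shRNA-D (40%, against 20.2%). The gene that fell with shRNA-D was SESN1, a sestrin like SESN3 (-0.36, adjusted p = 0.0121), and SLC36A1, a lysosomal amino acid transporter, was the one that rose (0.29). GPR155, a lysosomal cholesterol sensor for mTORC1, was among those that fell with shRNA-B (-0.26).

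Of 29 lysosomal TFEB target genes, 1 rose with shRNA-B without the block and the protease gene CTSB fell (-0.46 ± 0.096, adjusted p = 0.0424). These are 6.9% of the list, against 1.43%. None of the list was called with shRNA-D without the block (against 0.441%), and between hairpins 1 was lower with shRNA-D (3.45%, against 1.56%). With the block, 10 rose and 2 fell with shRNA-B (41.4% called, against 15.2%), and 2 rose and 2 fell with shRNA-D (13.8%, against 5.36%). Between hairpins 9 were lower and 3 higher with shRNA-D (41.4%, against 20.2%). LAMP1, a lysosomal membrane glycoprotein, was called with both hairpins in that model (0.49 and 0.46). The median change of the list was 0.13 for shRNA-B and -0.0013 for shRNA-D, against 0.01 and -0.03 over the genes of at least 1 CPM.

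The remaining 4 lists had no gene called without the block. With it, 1 of 16 substrates and effectors of mTORC1 rose and 1 fell with shRNA-B, and 1 rose and 1 fell with shRNA-D. These are 12.5% called with each hairpin, under the background with shRNA-B and over it with shRNA-D. EIF4EBP2, a translation repressor, fell with shRNA-B (-0.35), PDCD4, another one, fell with shRNA-D (-0.31), MAF1, the repressor of RNA polymerase III, rose with shRNA-B (0.19) and the lipid phosphatase LPIN1 rose with shRNA-D (0.33). Of 14 amino acid transporters, SLC1A5, which imports glutamine, and SLC7A6 fell with shRNA-B and the block (-0.42 and -0.27), which is 14.3% of the list and under the background. TELO2, an assembly factor of mTOR, rose with shRNA-B (0.30) among 6 other subunits and assembly factors (16.7%, near the background). TMEM127 fell with shRNA-B (-0.23) among 8 genes of energy and stress input (12.5%, under the background), in which STK11, the kinase upstream of AMPK, was lower with shRNA-D than with shRNA-B (-0.27). Between hairpins, the block called 25% of the energy and stress list, 18.8% of the substrates and effectors and 14.3% of the transporters, against 20.2%. It called 0% of the subunits and assembly factors there.

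Pseudogene, antisense and divergent rows that carry a member's name numbered 15. Apart from LAMTOR5-AS1, none reached more than 9.46% of its member's counts in any library. Of the 15, 6 had enough counts to be tested and none of these 6 was called in any contrast.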

How the data were processed

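Polyadenylated RNA from 12 libraries was sequenced, and the deposited table holds the authors' estimated counts per gene for each library, 85298 identifiers of which 60443 have a symbol. The submitters' processing notes name fastp and kallisto, and for versions, genome build, annotation and use of strand nothing is given in the sources used here. If strand was not used, reads from stretches where a gene and its antisense partner overlap cannot be told apart. Estimated counts were rounded to whole numbers, scaled by TMM and filtered with filterByExpr, which left 26366 genes. The libraries, with totals of 68737402 to 102644699, were grouped by their labels, and all 12 entered each model. Tests used edgeR 4.0.16 (quasi-likelihood, robust, R 4.3.3) with Benjamini-Hochberg adjustment over all tested genes and a threshold of 0.05, first tested on simulated data. The labels give 4 biological replicates without describing separate cultures, so the p-values reflect only how much these libraries varied, which may in part be technical.

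The model without a block came from the stated design. Deviations from the group means correlated at 0.111 to 0.564 between libraries of the same number and at -0.316 to 0.232 between different numbers, so the numbers were taken to pair the libraries. Of the 12 libraries, 11 correlated best with one of their own number, and no label says what a number shares. Numbers 2 and 3 were not clearly set apart from each other. For example, scramble 2 correlated at 0.232 with shRNA-D 3 and at 0.111 with shRNA-D 2. Alternatives were the block, RLE, upper-quartile and total scaling, no filter, DESeq2 1.42.0, voom (limma 3.58.1), only the groups compared, and each library left out. The set of at least 1 CPM and the blocked model without each number were chosen after seeing the data.

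The members and lists were chosen with earlier results of these data known. Values in every library are given for SIDT2, for each member called in either model and, in a role with none called, for the member whose p was smallest when both hairpins were averaged. Up to 4 genes are named per further list, and some are not reported here.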

Additional observations from a re-analysis of the deposited data

Results flagged for a closer look

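In RRAGD, library 4 stood apart from the other 3 libraries of its group in scramble (42.64 CPM) and with shRNA-B (44.81 CPM). For TSC2, scramble library 1 stood above the other 3 at 124.6 CPM. These 3 were found among 42 groups checked, and chance marks about 1 in 20 such groups. The flags of RRAGD are not independent of each other, since both fell on number 4. RRAGD differed between numbers (adjusted p = 7.1e-05) and was at -0.40 from the group means in number 4.

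The change against scramble differed between the hairpins, by a test of the difference itself, in 3 members. The change with shRNA-D minus that with shRNA-B was -0.48 on the log2 scale for RRAGC, -0.72 for LAMTOR1 and 0.44 for FNIP2. SIDT2 ranged from 5.77 to 8.27 CPM with shRNA-B and from 5.47 to 7.58 CPM with shRNA-D, and its part in these differences was not tested.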

How the results depend on the processing

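No called value turned its direction under any alternative run. Members called with shRNA-B (2) became 10 with the replicate block and 1 with only the groups compared, and 1 to 2 with a library left out. With shRNA-D (0) they became 2 with the block and 1 with DESeq2, and stayed at 0 with a library left out, as for the mean (0), which became 5 with the block and 2 with DESeq2. Between hairpins (3) they became 11 with the block, 1 with library totals alone, 1 with no filter and 1 with only the groups compared, and 0 to 2 with a library left out. Members that differed between numbers (27) became 13 to 31 with a number left out. Promoter windows with the longer motif were 2 in place of 7. Over all genes, calls with shRNA-B (231) became 2525 with the block, 371 at 1 CPM, 663 with DESeq2, 90 with only the groups compared, and 120 to 261 with a library left out. With shRNA-D (71) they became 871, 111 and 261 with the first 3 of these, and 32 to 76. For the mean (61) they became 1337 with the block, 94 with upper-quartile scaling, 97 with totals alone, 110 with no filter, 128 at 1 CPM, 341 with DESeq2, and 34 to 91. Between hairpins (251) they became 3391, 389, 815 and 108 in the order given for shRNA-B, and 113 to 310. The block changed no call of a member other than those named in the text. CASTOR1 had the fewest counts, 107 in its lowest library. Depth and the spread between libraries were not compared as limits.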
